A study of Mus musculus with 6 samples.

Results

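The mRNAs of 10 heat shock and chaperone genes (Hspa1a, Hspa1b, Hspa8, Hsp90aa1, Hsp90ab1, Dnajb1, Dnaja1, Hsph1, Hspe1 and Hspd1) were followed in CD4 T cells from the spleens of mice that carried or lacked H2-O, out of 32285 genes in the tables. They were picked by symbol, as the inducible and constitutive cytosolic chaperones with their partners and the mitochondrial chaperonin pair. The study sequenced 5' single-cell RNA libraries (10x Genomics) from 3 mice of either genotype (H2-O KO and H2-O WT), 1 library per mouse. All mice were given as strain C57BL6/J, 8 weeks of age and unimmunized by the labels, and according to the methods they were female and somewhat older. T cells had been sorted as CD3+ CD4+ B220- NK1.1- with dead cells gated out by propidium iodide, after manual disruption of the spleen and lysis of red cells. H2-O is the heterodimer that modulates the peptide-loading factor H2-M in B cells, thymic epithelium and some dendritic cells, and its genes lie in the MHC on chromosome 17. The study proposes that H2-O cooperates with H2-M in selecting peptides, and states that this conflicts with the original model. The knockout was germline, so every cell of the KO mice carried it. KO mice had been bred in house, WT mice came from purchased C57BL/6J bred in house, and whether they were littermates was not given in the sources used here. H2-O status therefore cannot be told apart from other differences between the 2 colonies.

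HSP70 proteins such as the products of Hspa1a, Hspa1b and Hspa8 bind exposed hydrophobic stretches of unfolded proteins in a cycle driven by ATP. J-domain proteins of the HSP40 family (Dnajb1, Dnaja1) deliver the substrate and start ATP hydrolysis, HSP110 proteins (Hsph1) exchange the nucleotide, and HSP90 proteins (Hsp90aa1, Hsp90ab1) receive kinases and receptors for late folding steps. Heat shock factor 1 (Hsf1) binds heat shock elements in the promoters of the inducible members when unfolded protein accumulates, and in lymphocytes the same genes also respond to activation and to tissue handling.

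Hspa1a and Hspa1b, which both encode the stress-inducible Hsp70, lie in the class III region of the MHC on the minus strand of chromosome 17, at 34969190 to 34972156 and 34956436 to 34959238 (build GRCm38), with 9.95 kb between them. Hsp90ab1 is on the same chromosome at 45567775 to 45573271, 10.6 Mb from Hspa1a and outside the MHC. The other 7 members are on chromosomes 1 (Hspe1 and Hspd1, head to head), 4 (Dnaja1), 5 (Hsph1), 8 (Dnajb1), 9 (Hspa8) and 12 (Hsp90aa1). The 250 bases before the start of the genes at which the KO and WT libraries differed most (Hspa1a, Hspa1b and Hsph1), and of Hspe1, which holds the densest cluster of the element, are shown from RefSeq (GRCm38.p6), 5′ to 3′ on the gene's strand. Capitals mark the 8-base core of the heat shock element, searched as GAANNTTC or TTCNNGAA, each of which reads the same on both strands.
Hspa1a, chr17:34972157-34972406, minus strand: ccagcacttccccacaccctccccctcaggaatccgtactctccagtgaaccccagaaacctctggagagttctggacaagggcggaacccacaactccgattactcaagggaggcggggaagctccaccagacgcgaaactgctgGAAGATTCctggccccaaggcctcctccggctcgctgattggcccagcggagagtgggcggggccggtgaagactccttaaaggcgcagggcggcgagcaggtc
Hspa1b, chr17:34959239-34959488, minus strand: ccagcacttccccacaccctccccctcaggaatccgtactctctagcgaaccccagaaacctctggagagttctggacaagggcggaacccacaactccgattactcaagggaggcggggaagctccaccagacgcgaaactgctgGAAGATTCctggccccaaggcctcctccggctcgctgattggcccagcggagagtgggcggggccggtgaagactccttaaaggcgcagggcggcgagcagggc
Hsph1, chr5:149636337-149636586, minus strand: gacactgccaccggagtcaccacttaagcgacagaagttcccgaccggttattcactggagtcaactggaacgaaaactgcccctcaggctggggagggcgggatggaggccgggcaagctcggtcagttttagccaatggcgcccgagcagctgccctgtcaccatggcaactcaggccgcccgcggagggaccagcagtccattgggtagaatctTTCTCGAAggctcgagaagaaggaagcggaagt
Hspe1, chr1:55087898-55088147, plus strand: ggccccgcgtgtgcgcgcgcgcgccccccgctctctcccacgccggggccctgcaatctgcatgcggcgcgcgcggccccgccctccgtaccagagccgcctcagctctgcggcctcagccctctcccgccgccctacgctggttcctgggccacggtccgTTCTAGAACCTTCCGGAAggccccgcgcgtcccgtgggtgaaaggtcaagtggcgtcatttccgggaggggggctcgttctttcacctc

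The Hspa1a and Hspa1b windows each held 1 core, 104 bases before the start, and differed at 3 of 250 positions (C44T, T47C and T249G, Hspa1a first, counted from 1 at the 5′ end). Hsph1 held 1 core 33 bases before its start. In Hspe1, 3 overlapping cores began 89, 84 and 79 bases before the start, and the same cluster lay upstream of the second annotated start of Hspd1 on the opposite strand. Dnaja1 had 1 core, 124 bases before its first listed start, and neither start of Dnajb1 had one. Of 32851 promoter windows of this length, 12.8% held at least 1 core, so a match describes the letters only. Promoters were matched for 7 of 10 members, all but Hspa8, Hsp90aa1 and Hsp90ab1.

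The libraries held 9973193 to 40237962 UMIs (unique molecular identifiers, each counted as 1 mRNA molecule) in 3908 to 9131 cell barcodes. After filters for genes, UMIs and mitochondrial share, 2126 to 7652 T cells per library were kept. In some of them ribosomal protein mRNAs made up less than 10% of the UMIs, and these cells were summed apart. They were 3.07%, 7.53% and 15.7% of T cells in KO replicates 1, 2 and 3, and 41.6%, 18.5% and 43.6% in WT replicates 1, 2 and 3. They were shallower, with median UMIs per cell of 1446 to 1810 against 4174 to 5655, and what they are was not tested. Pairs of libraries shared 21 to 99 barcodes (0.537% to 1.41% of the smaller one). In the cells at or over 10%, Cd3d, Cd3e, Cd3g, Trac, Trbc1, Trbc2 and Cd4 summed to 3585 to 3777 UMIs per 1000000, or CPM, in KO and 3448 to 3507 in WT. All of these genes but Cd4 were used to gate the T cells, so their presence was set in advance. The labels do not say which chain of H2-O was deleted, and counts over a gene check a deletion only where the deleted part was read. In these cells H2-Oa was at 4.50, 3.10 and 3.67 CPM in KO and 5.57, 5.64 and 8.62 in WT, and H2-Ob was at 25.4 to 31.0 against 19.8 to 20.2, so neither was absent from the libraries labelled KO.

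In T cells at or over 10% ribosomal protein UMIs, both MHC-encoded Hsp70 genes and Hsph1 were lower in H2-O KO, and the remaining members differed by little. Values are UMIs per 1000000 UMIs of the summed cells (CPM), given in the order of replicates 1, 2 and 3. Hspa1a was at 0.74, 1.58 and 0.95 CPM in the KO libraries (27, 28 and 20 UMIs) and at 10.3, 27.6 and 70.9 CPM in the WT libraries (63, 557 and 815 UMIs). The lowest WT library lay above the highest KO library, and the WT libraries themselves spread widely, with the highest in replicate 3. Hspa1a was 37.0-fold lower in KO (log2 fold change -5.21, SE 0.69, n = 3 and 3, adjusted p = 0.0064, edgeR quasi-likelihood test, Benjamini-Hochberg over 12047 genes, with an adjusted p under 0.05 taken as called). Hspa1b was at 2.59, 3.10 and 4.33 CPM in KO and at 28.5, 63.4 and 170 CPM in WT, again without overlap and again highest in WT replicate 3. It was 27.5-fold lower in KO (log2 fold change -4.78, SE 0.62, adjusted p = 0.0060). Leaving out each library in turn gave log2 fold changes of -5.58 to -4.32 for Hspa1a and -5.15 to -3.91 for Hspa1b, each past the threshold in all 6 fits and smallest without WT replicate 3.

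Hspa1a and Hspa1b share long stretches of sequence. Of the 91-base windows of the Hspa1a transcript, 49.1% occur unchanged in Hspa1b, and 59.3% of the first 300 windows do, so 91-base reads from these stretches cannot be assigned to either gene and the split between the pair is uncertain. Hspa1a took 22.1%, 33.7% and 18.0% of the pair's UMIs in KO and 26.6%, 30.3% and 29.4% in WT. The exact (Clopper-Pearson) 95% intervals of the KO shares ran from 15.1% to 30.5%, 23.7% to 44.9% and 11.4% to 26.4%. Those of the WT shares ran from 21.1% to 32.7%, 28.2% to 32.5% and 27.7% to 31.2%, and all 6 intervals cover counting error only. The KO shares lay on both sides of the WT shares, and the interval of KO replicate 3 ended below those of WT replicates 2 and 3. The third gene of the cluster, Hspa1l, which begins 0.547 kb from the 5′ end of Hspa1a on the other strand and encodes a testis-enriched Hsp70, had 3 UMIs in all in these cells, 1 in KO and 2 in WT.

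**Figure D1:**
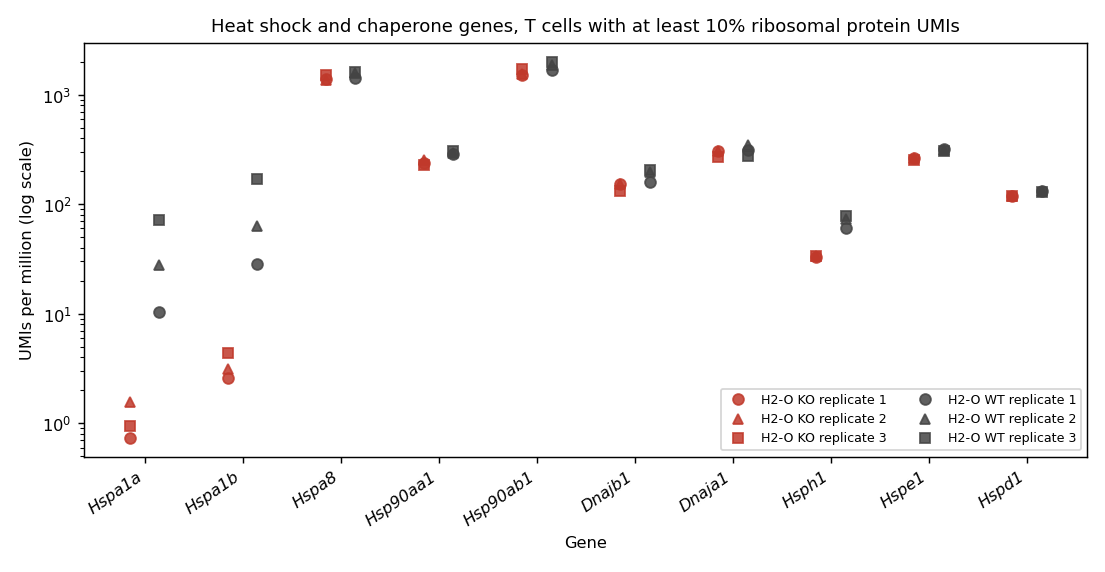
UMIs per 1000000 UMIs (CPM, log axis) of the 10 members in T cells at or over 10% ribosomal protein UMIs, 1 point per library, for 3 mice of each genotype. Hspa1a and Hspa1b lie between 0.74 and 4.33 CPM in KO and between 10.3 and 170 CPM in WT, Hsph1 is separated by a smaller gap, and the others differ little between genotypes.

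Hsph1 (chr5:149614287-149636376), the HSP110 exchange factor of Hsp70, was at 33.1, 33.6 and 33.9 CPM in KO and at 60.1, 72.7 and 78.3 CPM in WT. The KO libraries lay within 1 CPM of each other (33.5 ± 0.42, SD, n = 3) and far below every WT library (70.4 ± 9.34, SD, n = 3). Hsph1 was 2.13-fold lower in KO (log2 fold change -1.09, SE 0.09, adjusted p = 0.00096), with -1.17 to -1.02 when each library was left out and the call held in all 6 fits. Its spread between WT libraries was thus much smaller than that of Hspa1a and Hspa1b, while the order of the WT replicates was the same for all 3 genes.

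Of the HSP90 pair, Hsp90aa1, the inducible cytosolic form, was at 237, 253 and 226 CPM in KO and at 284, 292 and 307 CPM in WT. It was 1.24-fold lower in KO without overlap (log2 fold change -0.31, SE 0.06, adjusted p = 0.022). Hsp90ab1, the constitutive form, was far more abundant, at 1509, 1541 and 1708 CPM in KO and 1684, 1865 and 2002 CPM in WT. The groups overlapped, and the difference did not pass the test (log2 fold change -0.23, SE 0.08, adjusted p = 0.092).

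Of the mitochondrial chaperonin, Hspe1, which encodes the lid Hsp10, was at 265, 266 and 254 CPM in KO and at 317, 310 and 304 CPM in WT. It was 1.19-fold lower in KO (log2 fold change -0.26, SE 0.05, adjusted p = 0.020). Hspd1, which encodes the chamber Hsp60, was at 119.0, 119.3 and 119.7 CPM in KO and at 131.1, 130.4 and 130.1 CPM in WT. The groups did not overlap, but the difference was small and did not pass the test (log2 fold change -0.14, SE 0.05, adjusted p = 0.090).

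Among the HSP40 and constitutive HSP70 members, Dnajb1 was at 151, 153 and 133 CPM in KO and at 158, 196 and 207 CPM in WT (log2 fold change -0.37, SE 0.10, adjusted p = 0.054). Dnaja1 was at 305, 303 and 266 CPM in KO and at 311, 349 and 277 CPM in WT, which overlapped (log2 fold change -0.11, SE 0.09, adjusted p = 0.48). Hspa8, the constitutive Hsc70, was at 1381, 1357 and 1496 CPM in KO and at 1419, 1582 and 1606 CPM in WT, which overlapped as well (log2 fold change -0.13, SE 0.07, adjusted p = 0.24). None of these 3 passed the test.

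In these cells 5 of 10 members were called lower in KO and 0 were called higher, against 5.56% and 2.61% of the 12047 genes tested (8.17% in either direction). The median log2 fold change was -0.28 over the members and 0.00 over all genes tested. In 7 of 10 members every KO library lay below every WT library, against 16.0% of 12259 genes with at least 50 UMIs, and in 0 every KO library lay above, against 17.2%. The calls of Hsp90aa1 and Hspe1 rested on the full set of libraries. Hsp90aa1 was called in 1 of the 6 fits without 1 library (without WT replicate 3) and Hspe1 in 2 (without KO replicate 3 and without WT replicate 3). With all T cells summed irrespective of ribosomal protein share, Hsp90aa1 (log2 fold change -0.17, adjusted p = 0.087) and Hspe1 (-0.04, adjusted p = 0.76) were not called, and Hspa1a, Hspa1b and Hsph1 were. WT replicates 1 and 3 had the largest shares of cells under 10%. With replicate 2 as the only WT library, the same 3 genes were called (Hspa1a -4.77, Hspa1b -4.31 and Hsph1 -1.14), on the assumption that the lone sample varied like the KO group.

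**Figure D2:**
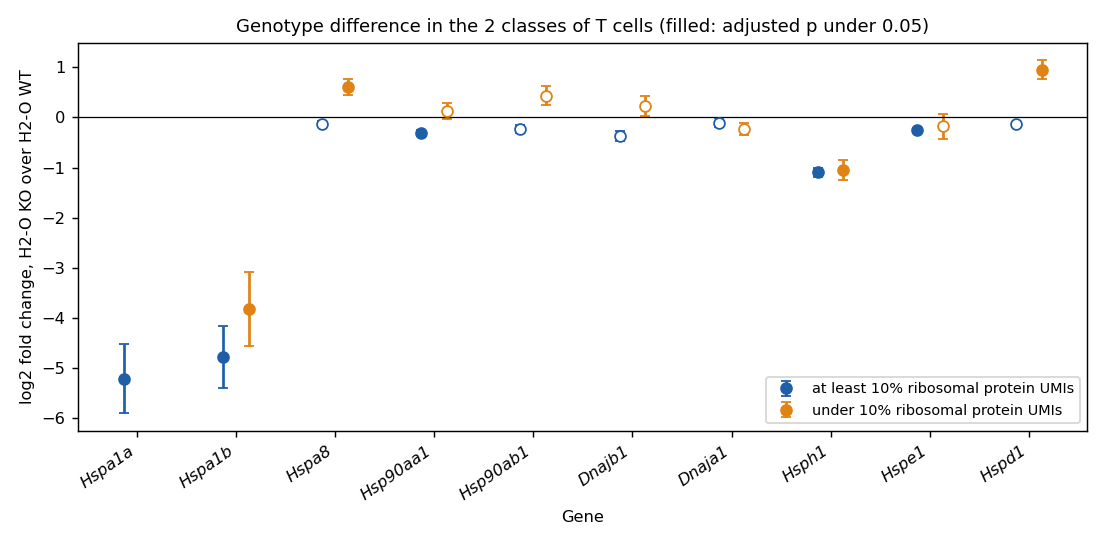
Log2 fold change, H2-O KO minus H2-O WT, of each member with bars of 1 SE (edgeR, n = 3 and 3 libraries), in T cells at or over 10% and under 10% ribosomal protein UMIs. Filled points passed an adjusted p of 0.05, and Hspa1a was not tested under 10%. Hspa1b passed the count filter under 10% only through WT libraries, so its call there gives no support. Hspa1a, Hspa1b and Hsph1 are on the negative side in both classes where tested. Hspa8, Hspd1, Hsp90aa1, Hsp90ab1 and Dnajb1 lie on opposite sides in the 2 classes, and of these Hspa8 and Hspd1 were called under 10%.

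The share of cells with at least 1 UMI gave the same order for the 3 genes. Each cell was thinned to 1500 UMIs, which left out 492 KO and 415 WT cells below that depth. Hspa1a was detected in 0.0962%, 0.265% and 0.108% of KO cells and in 1.13%, 3.07% and 7.31% of WT cells. Hspa1b was detected in 0.275%, 0.471% and 0.498% of KO cells and in 3.81%, 7.77% and 16.6% of WT cells. Hsph1 was detected in 4.58%, 4.80% and 4.85% of KO cells and in 7.53%, 10.4% and 11.5% of WT cells. Each of the 3 had the smallest p that 3 against 3 libraries allow (p = 0.1, exact permutation test, two-sided), as had Hsp90aa1, Hsp90ab1 and Hspe1. No cell type that lacks these genes was at hand as a measure of free RNA in the droplets.

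Detection was uneven over WT cells. In WT replicate 3, the 5% of thinned cells with the most Hspa1b held 52.7% of its UMIs, with up to 13 in a cell. Among thinned WT cells with an Hspa1a UMI (13, 107 and 158 cells), Hspa1b was detected in 15.4%, 31.8% and 36.1%, against 3.68%, 7.01% and 15.1% of those without. Dnajb1, the HSP40 partner of inducible Hsp70, was detected in 46.2%, 32.7% and 36.1% of cells with an Hspa1a UMI and in 18.7%, 25.9% and 27.2% of cells without. In each WT library, then, cells with Hspa1a held both other mRNAs more often, although cells of 1 library are not replicates, and reads that fit both Hspa1a and Hspa1b bear on the first comparison.

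The same 3 genes were lower in KO in gates set by markers that are not members. The naive-like gate took cells with naive T cell mRNAs, among them Ccr7, Igfbp4 and Lef1, and neither Foxp3 nor effector genes. The effector-like gate took cells with at least 2 UMIs in all over Ccl5, Nkg7, Cxcr3, S100a4, Itgb1 and Id2, and no Foxp3. The Foxp3+ gate (the regulatory T cell factor) took cells with at least 1 Foxp3 UMI. All gates were set among cells at or over 10%. In the naive-like gate Hspa1a was at 0.33, 2.15 and 0.11 CPM in KO and 11.7, 27.8 and 57.9 in WT. Hspa1b was at 1.16, 2.71 and 2.86 CPM against 34.4, 58.5 and 128. Hsph1 was at 30.3, 33.9 and 31.1 CPM against 64.0, 68.8 and 66.8, so none of the 3 overlapped. There 7 of 10 members were called lower and 0 higher, against 7.55% lower and 4.66% higher among 10694 genes (12.2% in either direction): Hspa1a (log2 fold change -5.54), Hspa1b (-5.24), Hsph1 (-1.09), Hsp90aa1 (-0.34), Dnajb1 (-0.32), Hspe1 (-0.28) and Hsp90ab1 (-0.24). Without overlap 7 members lay below and 0 above in KO, against 15.3% and 16.3% of 10861 genes. Hspa1a and Hspa1b were called in all 6 fits without 1 library, Hspa1a from -7.00 (without KO replicate 2) to -4.90 and Hspa1b at -4.63 without WT replicate 3. Hspa1a had 6, 19 and 1 UMIs in KO, too few to pass the filter without the WT libraries, where it is high. Its calls in this gate, that with all libraries included, therefore give no support. The calls of Dnajb1 and Hsp90ab1 were lost in 4 of the 6 fits without 1 library. For Dnajb1 these were the fits without KO replicate 1 (-0.33), KO replicate 3 (-0.27), WT replicate 2 (-0.25) and WT replicate 3 (-0.27). For Hsp90ab1 they were the fits without KO replicate 1 (-0.20), KO replicate 2 (-0.22), WT replicate 2 (-0.23) and WT replicate 3 (-0.20). In naive-like cells taken irrespective of ribosomal protein share, Hspe1 and Hsp90ab1 changed sign (0.07 and 0.06, neither called).

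In the Foxp3+ gate Hspa1b was at 5.03, 2.51 and 4.03 CPM in KO and at 23.8, 71.3 and 184 CPM in WT (log2 fold change -4.60, SE 0.53, adjusted p = 0.00054), and at -3.74 without WT replicate 3. Hsph1 was at 36.4, 26.6 and 33.4 CPM in KO and at 58.6, 81.5 and 76.6 CPM in WT (log2 fold change -1.19, SE 0.16, adjusted p = 0.0022). Both were without overlap, and these 2 were the members called, against 0.228% of 9218 genes (0.108% lower and 0.119% higher). Hspa1b had 17, 5 and 10 UMIs in KO, too few to pass the filter without the WT libraries, where it is high. Its calls in this gate therefore give no support. Without overlap 4 members lay below in KO (Hspa1a, Hspa1b, Dnajb1 and Hsph1) and 0 above, against 8.03% and 7.52% of 9459 genes. Hspa1a had 4, 3 and 1 UMIs in KO and 2, 30 and 75 in WT (1.18, 1.51 and 0.40 against 3.66, 18.0 and 66.0 CPM) and was too low to be tested there with all libraries. It passed the filter in 4 of the fits without 1 library and was called lower in all 4 (-5.21 to -4.54). In these fits it passed only through WT libraries, where it is high, so the 4 calls give no support.

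In the effector-like gate Hspa1a was at 2.16, 1.13 and 3.35 CPM in KO and at 10.5, 33.5 and 102 in WT. Hspa1b was at 5.34, 3.40 and 8.20 CPM against 26.8, 84.0 and 254, and Hsph1 was at 39.2, 38.5 and 39.1 CPM against 62.9, 73.0 and 93.7. These 3 members were called lower (log2 fold changes -4.48, -4.45 and -1.01, adjusted p = 0.027, 0.024 and 0.0093) and none higher, against 0.401% of 10219 genes (0.254% lower and 0.147% higher). In this fit Hspa1a had too few KO UMIs (17, 4 and 18) to pass the filter without the WT libraries, where it is high. Its call therefore gives no support. Without overlap 8 members lay below in KO (all but Hspa8 and Hspd1) and 0 above, against 9.72% and 12.4% of 10492 genes. Without KO replicate 1, 2 or 3, 0 members were called in this gate, although the groups did not overlap in any of the 3. Without WT replicate 3 the 3 calls held, with Hspa1a at -3.40 and Hspa1b at -3.41. In kept cells outside the T cell gate, which were not split by ribosomal protein share, Hspa1b and Hsph1 were again without overlap and Hspa1a overlapped. The median share in them was 20.8%, 18.9% and 11.7% in KO and 5.26%, 4.37% and 7.90% in WT. The part of this unlike share in their values was not tested. In these cells outside the gate Hspa1a was at 7.97, 0 and 6.95 CPM in KO (4, 0 and 4 UMIs) and 0, 24.3 and 55.6 in WT. Hspa1b was at 1.99, 9.90 and 3.48 CPM in KO and 28.3, 53.7 and 119 in WT, and Hsph1 at 33.9, 39.6 and 38.2 against 82.9, 114 and 158. There 3 members lay below in KO (Hspa1b, Dnaja1 and Hsph1) and 3 above (Hspa8, Hsp90ab1 and Hspe1), against 37.4% and 21.6% of 7632 genes. Whether this is expression by other cell types, RNA from T cells in the same droplets or T cells that missed the gate was not tested.

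The ratio of the Hsp70 pair to the other 8 members kept the same order of the WT libraries in every gate. Per 1000 UMIs of the other 8, the pair had 0.831, 1.16 and 1.25 UMIs in KO and 8.89, 19.0 and 49.1 in WT in the cells at or over 10%. In naive-like cells the WT values were 10.5, 17.7 and 39.0, in Foxp3+ cells 6.69, 18.9 and 50.7, and in effector-like cells 8.48, 25.0 and 69.1. WT replicate 3 was highest and WT replicate 1 lowest in every gate, and all KO values in the gates lay between 0.374 and 2.74. In KO the order of the libraries was not kept: replicate 1 went from 0.374 in naive-like to 1.55 in Foxp3+ and 1.86 in effector-like cells, and replicate 3 from 0.710 to 0.989 and 2.74.

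**Figure D3:**
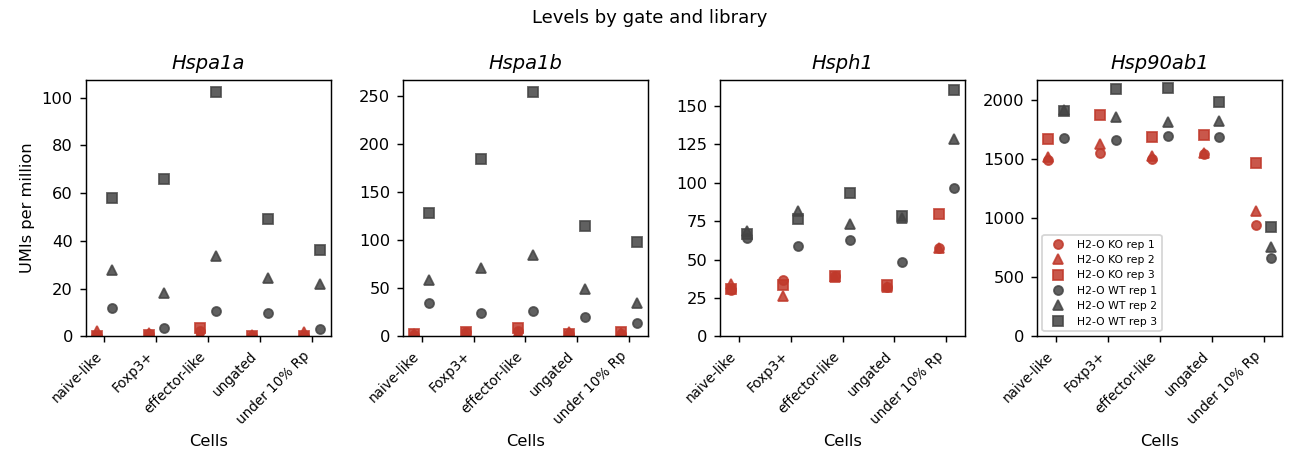
UMIs per 1000000 UMIs (CPM, linear axes from 0, 1 panel per gene) of Hspa1a, Hspa1b, Hsph1 and Hsp90ab1 in the naive-like, Foxp3+ and effector-like gates, in cells of no gate and in T cells under 10% ribosomal protein UMIs, 1 point per library. For Hspa1b and Hsph1 every H2-O KO library lies below every H2-O WT library in each class, while Hsp90ab1 is higher in KO under 10%.

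In fits over both genotypes, the Hsp70 pair differed by far less between gates within a mouse than between genotypes. Within KO mice this was uneven. From naive-like to effector-like cells, the pair per 1000 UMIs of the other 8 went from 0.374 to 1.86 in KO replicate 1. It went from 1.21 to 1.13 in KO replicate 2 and from 0.710 to 2.74 in KO replicate 3. In effector-like against naive-like cells, Hspa1a (log2 fold change 0.51, adjusted p = 0.031) and Hspa1b (0.64, adjusted p = 0.00026) were higher, and Hspe1 (-0.23), Dnaja1 (-0.16), Hspa8 (-0.15), Hsp90ab1 (-0.12) and Dnajb1 (-0.11) were lower. This made 2 members higher and 5 lower, against 20.5% and 18.3% of 10173 genes (38.7% in all). The call of Hspa1a was lost without KO replicate 1 (0.44, adjusted p = 0.059) and without WT replicate 3 (0.40, adjusted p = 0.30). In Foxp3+ against naive-like cells 5 members were lower and 0 higher, against 20.9% and 23.6% of 9656 genes (44.5% in all): Hspe1 (-0.35), Dnajb1 (-0.34), Hspa8 (-0.22), Dnaja1 (-0.19) and Hsp90ab1 (-0.11). The gates need marker UMIs and so differ in depth, and the part of depth in these values was not tested.

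In T cells under 10% ribosomal protein UMIs, the Hsp70 pair and Hsph1 were again lower in KO, while Hspa8 and Hspd1 were higher. Hspa1b was at 2.31, 3.59 and 4.91 CPM in KO and at 14.2, 34.7 and 98.2 CPM in WT, 14.2-fold lower (log2 fold change -3.82, SE 0.74, adjusted p = 0.0037). Hsph1 was at 57.8, 57.5 and 79.7 CPM in KO and at 96.4, 128 and 160 CPM in WT, 2.07-fold lower (log2 fold change -1.05, SE 0.20, adjusted p = 0.0039). Neither overlapped, and both were called in all 6 fits without 1 library, Hspa1b at -2.59 without WT replicate 3. Hspa1b had 1, 2 and 8 UMIs in KO and passed the filter only through WT libraries, where it is high. Its calls here therefore give no support, and its fitted fold rests on few KO UMIs. Hspa1a had 0, 1 and 0 UMIs in KO and 4, 32 and 123 in WT and fell below the filter for testing. It passed the filter in 4 of the fits without 1 library and was called lower in 3, not without KO replicate 3 (adjusted p = 0.065). Here too it passed only through WT libraries, so these calls give no support, and with so few KO UMIs its fitted fold is not given.

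Hspa8 was at 848, 950 and 1148 CPM in KO and at 508, 594 and 670 CPM in WT, 1.52-fold higher (log2 fold change 0.61, SE 0.16, adjusted p = 0.018). Hspd1 was at 127, 137 and 205 CPM in KO and at 61.3, 87.0 and 84.4 CPM in WT, 1.93-fold higher (log2 fold change 0.95, SE 0.19, adjusted p = 0.0039). In both genes every KO library lay above every WT library. Without KO replicate 3, the highest library in both, neither was called (Hspa8 0.41, adjusted p = 0.11, and Hspd1 0.55, adjusted p = 0.074), and the call of Hspa8 was also lost without WT replicate 1 (0.51, adjusted p = 0.12) and without WT replicate 2 (0.56, adjusted p = 0.052). Hsp90ab1 was at 943, 1058 and 1472 CPM in KO and 667, 760 and 929 CPM in WT without overlap, yet missed the threshold (log2 fold change 0.44, adjusted p = 0.13). Dnajb1 (0.23, adjusted p = 0.47), Hsp90aa1 (0.13, adjusted p = 0.63), Hspe1 (-0.18, adjusted p = 0.68) and Dnaja1 (-0.24, adjusted p = 0.19) overlapped between genotypes. In all, 2 of the 9 members tested were called lower (Hsph1, and Hspa1b only through WT libraries) and 2 higher, against 7.56% and 7.33% of 9141 genes (14.9% in either direction). Without overlap 3 members lay below and 3 above in KO, against 8.03% and 22.9% of 9379 genes. T cell marker mRNAs also stood apart by genotype in these cells, summing to 2512 to 2988 CPM in KO and 1768 to 1778 in WT, and 14 mRNAs of other blood lineages summed to 15.9 to 19.8 CPM in KO and 20.6 to 91.7 in WT. The part of either in the members' values was not tested.

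The difference between genotypes itself changed with the class for Hspd1 (interaction, under 10% minus at or over 10%, log2 1.05, SE 0.18, adjusted p = 0.0023) and for Hspa8 (0.70, SE 0.19, adjusted p = 0.043). These 2 members were called higher and 0 lower, against 2.71% and 0.78% of 11153 genes (3.49% in all). The interaction of Hspd1 was called in all 6 fits without 1 library (0.66 to 1.18), and that of Hspa8 in 1 of 6, without WT replicate 3 (0.56 to 0.81 over the 6). It did not pass for Dnajb1 (0.63, adjusted p = 0.058), Hsp90ab1 (0.61, adjusted p = 0.10), Hsp90aa1 (0.41, adjusted p = 0.19), or Hspa1b (0.86, adjusted p = 0.40), and Hspa1a, with 1 UMI over the 3 KO libraries under 10%, gave no usable value. On simulated counts the interaction fit recovered 34.5% of genes changed 2-fold, so a missed call does not show that the classes were alike. With RLE normalization Hspd1 alone was called. With library size only, 5 members were called higher (Hspa8, Hspd1, Dnajb1, Hsp90aa1 and Hsp90ab1).

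Within each mouse, on the CPM scale, Hspe1, Dnajb1, Hspa8 and Hsp90ab1 were lower in cells under 10% than in cells at or over 10%, and Dnaja1 and Hsph1 were higher. On log2 (CPM + 1), Hspe1 was lower in 6 of 6 libraries, by values from -2.64 to -1.67. Hspa8 differed by -0.70, -0.51 and -0.38 in KO and by -1.48, -1.41 and -1.26 in WT. Dnaja1 (0.66 to 0.76) and Hsph1 (0.67 to 1.21) were higher in 6 of 6 libraries. Hspd1 was higher in the 3 KO libraries (0.09, 0.19 and 0.77) and lower in the 3 WT libraries (-1.09, -0.58 and -0.62). Hspa1b differed by -0.12, 0.16 and 0.15 in KO and by -0.96, -0.85 and -0.79 in WT. The pair per 1000 UMIs of the other 8 members was at 7.93, 22.9 and 49.6 in WT in these cells, close to the 8.89, 19.0 and 49.1 of the cells at or over 10%. In KO it was at 0.814, 1.75 and 1.28, on 1, 3 and 8 UMIs of the pair, too few to compare with the other class.

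The calls, but no direction, of some of these differences depended on scaling. With TMM normalization, 8 members were called lower and 1 (Hsph1, log2 0.29, adjusted p = 0.0081) higher, against 36.2% and 38.3% of 10397 genes (74.5% in all). The lower ones were Hspe1 (-2.76), Dnajb1 (-1.80), Hspa8 (-1.62), Hsp90ab1 (-1.52), Hspa1a (-1.42), Hspa1b (-1.35), Hspd1 (-0.84) and Hsp90aa1 (-0.83), and Dnaja1 was at 0.06 (adjusted p = 0.50). Hsph1 lost its call without WT replicate 3 (0.18, adjusted p = 0.12). With library size alone the median over all genes moved from 0.037 to 0.677, and of the 8163 calls 6299 were higher and 1864 lower. On that scale Hsph1 (0.92) and Dnaja1 (0.72) were called higher, 6 members stayed lower, Hspe1 (-2.13) the most, and Hsp90aa1 (-0.18, adjusted p = 0.16) and Hspd1 (-0.20, adjusted p = 0.34) were not called. Under either scaling all 8 members called lower with TMM lay below the median of all genes, and Hsph1 and Dnaja1 lay above it.

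**Figure D4:**
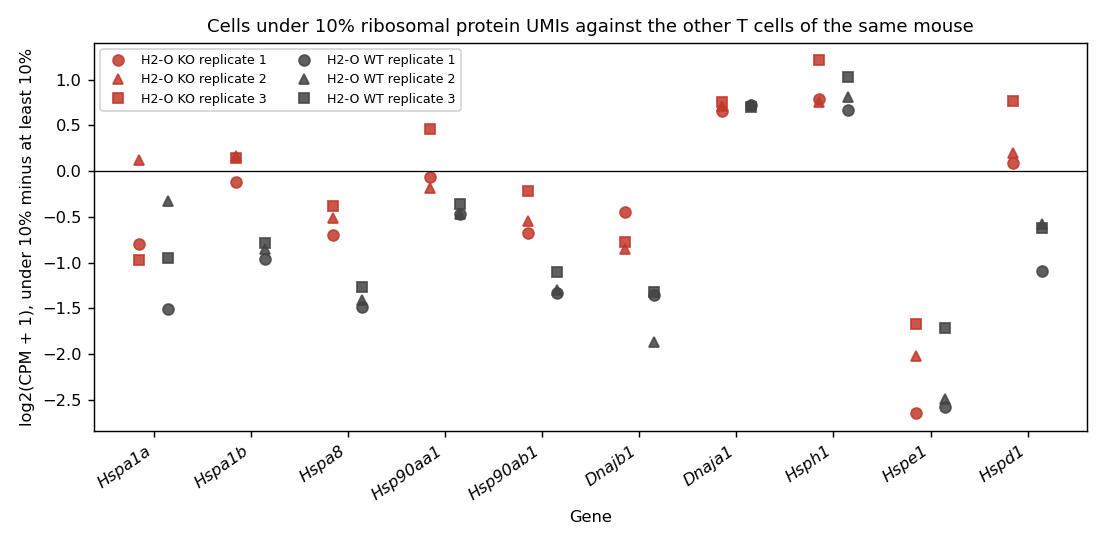
Difference in log2 (CPM + 1) between T cells under 10% and T cells at or over 10% ribosomal protein UMIs of the same mouse, 1 point per library, for each member. On this CPM scale Hspe1 is lower and Hsph1 and Dnaja1 are higher in 6 of 6 mice, and Hspd1 is above 0 in the 3 H2-O KO mice and below 0 in the 3 H2-O WT mice.

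The genes around the Hsp70 pair did not share its difference. Within 500 kb of Hspa1a, 47 other genes were tested in the cells at or over 10%. Of these, 1 was called higher in KO (H2-Q7, a class I-like gene, log2 fold change 0.41, adjusted p = 0.0064) and 1 lower, which is 4.26%. The lower one was Gm10501, an antisense gene 4.74 kb from the 5′ end of Hspa1a (-1.43, adjusted p = 0.031). The median of the 47 genes was 0.11 and the range -1.43 to 0.73, so none came near the -5.21 of Hspa1a. Whether reads of Gm10501 and of the gene on the other strand were told apart depends on the authors' counting by strand, which is not given in the sources used here. Over the whole of chromosome 17, 56 of 646 genes were called higher and 51 lower (16.6%), against 258 and 614 of 11380 on the other chromosomes (7.66%). Tested genes with an absolute log2 fold change over 1, called or not, numbered 44 on chromosome 17 and 88 elsewhere. Ddr1 (-4.75, 0.71 Mb from Hspa1a) and H2-T3 (10.2, 1.22 Mb) were among those on chromosome 17, both chosen after their values were seen. Sequence around H2-O that came with the knockout and differs between the colonies cannot be told apart from the knockout in these libraries. Of the members that were called lower, Hsph1 (chromosome 5), Hsp90aa1 (chromosome 12) and Hspe1 (chromosome 1) lie elsewhere, and Hsp90ab1, on chromosome 17 but outside the MHC, was not called.

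**Figure D5:**
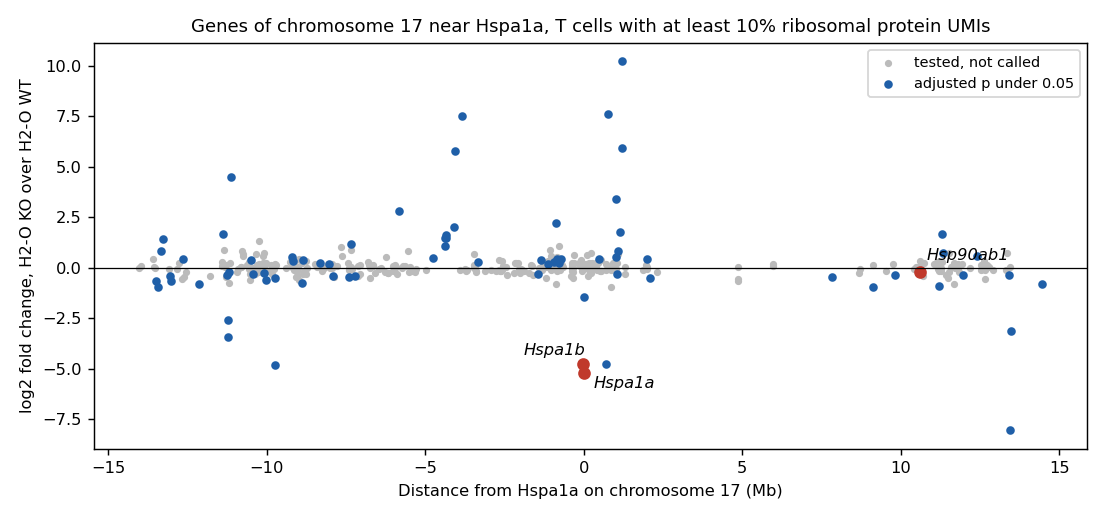
Log2 fold change, H2-O KO minus H2-O WT, of 422 genes tested in T cells at or over 10% ribosomal protein UMIs, against distance in Mb from Hspa1a on chromosome 17 (within 15 Mb to either side). Called genes are blue (75 in all with the called members), other tested genes grey, and the 3 members on this chromosome red. Hspa1a and Hspa1b stand at -5.21 and -4.78 among neighbours within 500 kb of -1.43 to 0.73, while genes farther off reach beyond both ends.

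Of 96 other chaperone and heat shock genes tested in the cells at or over 10%, 8 were called (8.33%), 2 higher and 6 lower in KO, which is near the 8.17% of all genes. Other HSP70 and HSP110 genes (6 tested), the exchange and ubiquitin-linked partners of Hsp70 (9), the chaperonin TRiC, which folds actin and tubulin (8), and the heat shock factors (4) had 0 called genes in either direction. Hsf1 itself was at -0.02 (adjusted p = 0.81). Of 16 HSP40 genes, Dnajb4 (-0.57, adjusted p = 0.013) and Dnajc13 (-0.39, adjusted p = 0.014) were lower. Of 14 HSP90 cochaperones, 1 was lower (Cdc37l1), of 9 mitochondrial chaperones 1 was higher (Grpel1, an exchange factor of the mitochondrial Hsp70, 0.23, adjusted p = 0.043), and of 6 prefoldin genes 1 was higher (Pfdn5, 0.21, adjusted p = 0.046). Of 15 ER chaperones, Hspa5 (BiP) and Calr were lower, with a median of -0.08. Of 7 other heat-inducible genes 1 was lower (Rsrc2), and 2 of the 6 small HSP genes passed the filter, with 0 called. Immediate early genes known to rise during tissue dissociation were given beside these as a marker of handling. Of 15 tested, 1 was lower (Klf6, -0.42, adjusted p = 0.016) with a median of 0.05, and their summed level was 7240 to 7854 CPM in KO and 6932 to 7481 in WT.

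In the cells under 10%, 18 of 88 other chaperone and heat shock genes were called (20.5%), 16 higher and 2 lower, against 14.9% of all genes. Of 15 ER chaperones 9 were higher in KO and 0 lower, with a median of 0.80 against 7.33% and 7.56% of all genes. Among them were Pdia4 (1.35, adjusted p = 4.5e-05), P4hb (1.01, adjusted p = 0.00026), both protein disulfide isomerases, Manf (1.08, adjusted p = 0.0025) and Hspa5 (0.80, adjusted p = 0.0017). Of 8 TRiC genes 4 were higher (Cct3, Cct5, Cct6a and Cct7, median 0.30), and of 16 HSP40 genes 0 were called. Cdc37l1 (-0.54, adjusted p = 0.0057) and Rsrc2 (-0.45, adjusted p = 0.012) were lower. Of 13 immediate early genes 6 were higher (Jund, Ier2, Junb, Nfkbia, Fos and Dusp1, median 0.37), with a sum of 6685 to 7894 CPM in KO and 5022 to 5333 in WT. The ER list had 9 of 15 genes with a higher interaction as well (median 0.59), and the immediate early list 1 of 14.

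Between the classes within a mouse, all 8 TRiC genes (median -0.66) and 5 of 6 prefoldin genes (median -1.85) were lower under 10%, the latter led by Pfdn5 (-3.04). Hspb11 (-2.76) and Dnajc19 (-2.45) were also lower. Of 5 HSP70 and HSP110 genes other than the members 4 were higher (Hspa14, Hspa4l, Hspa4 and Hspa13), the largest being Hspa4l (1.37), an HSP110 relative of Hsph1. Cdc37l1 (1.26) and Fosb (1.09) were higher too. Of 14 immediate early genes tested in this comparison, 1 was higher and 11 lower.

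Over the 12 sums of library by class, the gene whose log2 CPM was most like that of Hspa1a, among 6665 genes with a mean of at least 20 CPM, was Hspa1b (Pearson r = 0.966), followed by Gm21887 (0.734), Gm47283 (0.713), Hist2h2ac (0.622) and Hsph1 (0.599). For Hsp90ab1 these were Hspa8 (0.985), Id3 (0.965), Atp5b (0.964), Polr2d (0.963) and Eef1a1 (0.960). The sums of 1 library share their mouse and its sequencing depth, so the values describe these libraries. The 12 sums differ by genotype and by ribosomal protein class, so the correlations cannot be separated from those contrasts. At or over the ribosomal protein limit, Gm21887 was at 1.53, 0.676 and 36.6 CPM in KO and 111, 115 and 181 in WT. Eef1a1 was at 8194 to 8784 CPM there and at 2138 to 4842 CPM under the limit. Reads that fit both Hspa1a and Hspa1b bear on the r of 0.966. The genes named for Hspa1a and Hsp90ab1 differed, with Hsph1 the next member for Hspa1a, and regulation in common was not tested.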

How the data were processed

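Deposited whole-number UMI counts per gene and cell were used for all 6 libraries. Per the labels and methods, the authors prepared 5' libraries (10x kit v1.1) read over 91 bases and processed them with Cell Ranger 6.1.2 against mm10, and whether counting used strand is not given in the sources used here. Cells with fewer than 200 genes, over 12000 UMIs or over 5% mitochondrial UMIs were removed, and T cells were taken with at least 1 UMI of Cd3d, Cd3e, Cd3g, Trac, Trbc1 or Trbc2 and at most 1 of Cd79a, Cd79b, Ms4a1, C1qa, C1qb, C1qc, Lyz2 and Hbb-bs. Doublets were treated only through the UMI maximum. The naive-like gate needed at least 1 UMI over its markers, of which 1 is not reported here. UMIs were summed per library and per gate, and cells under 10% ribosomal protein UMIs (symbols beginning Rps or Rpl and a digit) were summed apart. The sums hold all UMIs of a gene, so deep cells weigh more in them.

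Genotypes were compared with edgeR 4.0.16 (filterByExpr, TMM, quasi-likelihood test, adjusted p under 0.05 over all genes tested), with mouse as a block between classes and gates. Exact two-sided permutation tests were run on shares of cells. R 4.3.3, limma 3.58.1, Python 3.11.15, numpy 2.4.6 and scipy 1.17.1 were used. The fits were tested on simulated data. Alternatives were DESeq2 1.42.0, other normalization, filters, ribosomal and UMI limits, thinning, a replicate block and leaving out each library. Library size alone and WT replicate 2 as the only WT library were chosen after seeing the data. Same replicate numbers were not taken as pairs in the main fits, as the mice were 3 separate animals per group. Whether libraries of the same number shared a batch was not tested.

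The members and gene lists were chosen with earlier results of these data known. All members are named. From the other lists, the 3 called genes with the largest change in each direction are named for the genotype comparisons in both ribosomal classes and for the comparison of the classes, beside members of short call lists. The 5 genes most like Hspa1a and Hsp90ab1 and the called genes within 500 kb of Hspa1a are named as well. Positions are from GENCODE vM21 on GRCm38 (32158 of 32285 IDs matched), and promoters from RefSeq GRCm38.p6.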

Additional observations from a re-analysis of the deposited data

Results flagged for a closer look

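In 5 genes, all of them members or other chaperones named in the report, the genotype difference (KO minus WT) was not the same in T cells under 10% ribosomal protein UMIs as in those at or over 10%, by the interaction term of the edgeR fit (under 10% minus at or over 10%, log2 scale). The interaction was 1.05 for Hspd1, the mitochondrial Hsp60 (adjusted p = 0.0023), and 0.70 for Hspa8, the constitutive Hsc70 (adjusted p = 0.043). That of Hspd1 was called in 6 of 6 fits without 1 library. That of Hspa8 was called in 1 of 6 and was not called with RLE normalization. Among ER chaperones the interaction was 1.29 for Pdia4, 1.00 for Manf and 0.93 for P4hb. These 3 had been named for their rise in KO under 10%, a choice that favours a positive interaction. Of the 15 ER chaperones, 9 had a called interaction, all higher. Over all 11153 genes tested, 3.49% were called (2.71% higher and 0.78% lower). In each of the 5 the sign is that of a higher level in KO under 10% relative to the difference at or over 10%. The summed T cell markers (2512 to 2988 CPM in KO, 1768 to 1778 in WT) and immediate early genes (6685 to 7894 and 5022 to 5333) were also higher in KO under 10%, and their part in these values was not tested.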

How the results depend on the processing

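DESeq2, RLE, no filter on low counts, other limits for UMIs, mitochondrial and ribosomal protein share, thinning, a replicate block and leaving out each library were tried. Counts below are genes called. In the cells at or over 10% ribosomal protein UMIs, 984 became 3984 without the split, 1935 with a replicate block, 513 after thinning and, chosen after seeing the data, 88 with WT replicate 2 as the only WT library. Under 10%, 1361 became 735 with DESeq2. Without the split the naive-like gate gave 4243 in place of 1305 and the Foxp3+ gate 96 in place of 21 (81 with the block). The effector-like gate, with 41, gave 91 with DESeq2, 252 with the block and 141 without the split. The interaction gave 625 in place of 389 with library size only, chosen after seeing the data. Leaving out 1 library gave 89 to 1192 at or over 10%, 554 to 1608 under 10%, 439 to 1328 in the naive-like, 17 to 34 in the Foxp3+ and 13 to 189 in the effector-like gate, and 62 to 366 for the interaction. The cause of these shifts was not tested, and the fits without 1 library also had fewer samples.

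Hspa1b and Hsph1 kept their direction and their call in the genotype comparison at or over 10% under every alternative tried, and Hspa1a did in every one that gave it an adjusted p, which DESeq2 did not there or in the naive-like gate. After thinning, Hspa1a had 10, 9 and 7 UMIs in KO and passed the filter only through WT libraries, so that call gives no support. Of the members, 5 were called at or over 10%, against 7 with the replicate block, which added Dnajb1 and Hsp90ab1, 6 with DESeq2 or without the filter, 4 after thinning and 3 without the split. In the effector-like gate 3 became 5 with DESeq2 or with the block. Correlations of deviations between KO and WT mice of the same number were -0.0133, 0.253 and 0.492 over 9152 genes. Those between mice of different numbers ran from -0.462 to 0.428. These few values cannot decide whether libraries of the same number shared a batch.

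Log2 fold changes that changed sign were, without the split, Hspa8 (0.071) and Hspd1 (0.057) at or over 10%, Hspa8 (0.18), Hsp90ab1 (0.064), Hspe1 (0.066) and Hspd1 (0.15) in the naive-like gate, and Hspa8 (0.0021), Dnaja1 (-0.049), Hspe1 (0.081) and Hspd1 (0.032) in the Foxp3+ gate. With RLE the interaction of Hsph1 was -0.015. None of these passed the test. Leaving out 1 library gave ranges over 0 for Hsp90aa1 (-0.16 to 0.26) and Hspe1 (-0.56 to 0.26) under 10%, for Dnaja1 (-0.15 to 0.20), Hspe1 (-0.10 to 0.024) and Hspd1 (-0.16 to 0.15) in the Foxp3+ gate, for the interactions of Hspa1a (-4.87 to 0.37, which rests on 1 UMI in KO under 10%), Hsph1 (-0.31 to 0.18) and Hspe1 (-0.35 to 0.51), and for Hsph1 in Foxp3+ against naive-like cells (-0.13 to 0.0033).

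The KO minus WT difference in the share of cells with a UMI, in percentage points, was larger or smaller at other depths. At 3000 UMIs per cell it was -6.13 for Hspa1a, -14.1 for Hspa1b, -8.90 for Hsph1, -6.74 for Hspe1, -1.62 for Hspd1, -1.24 for Hsp90ab1, -0.97 for Dnaja1 and -0.55 for Hspa8. Without thinning it was -8.23 for Hspa1a, -18.0 for Hspa1b, -13.3 for Hsph1, -9.26 for Hsp90aa1, -8.25 for Dnajb1, -4.30 for Hspd1, 1.57 for Hspa8 and 1.64 for Hsp90ab1.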
